A study of Mus musculus with 5 samples.

Results

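The genes described here are 10 genes of zinc and copper handling, picked by symbol from the 23022 genes of a comparison between tetraploid and normal fetal mouse liver, and all 10 had a value in it. They comprise the metallothioneins Mt1 and Mt2, the zinc sensor Mtf1, the zinc exporter Slc30a1, the zinc importers Slc39a14, Slc39a8 and Slc39a4, the copper importer Slc31a1, the copper pump Atp7b and the copper plasma protein ceruloplasmin (Cp). RNA was sequenced from 5 livers at E18.5, late in gestation. The 3 livers of the 4N group came from embryos that were Hhex knockout and had received, as blastocysts, tetraploid embryonic stem cells (4N-ESCs) positive for td-Tomato, a red fluorescent marker. The 2 livers of the WT group came from normal embryos of the same age. Hhex is a homeobox gene that liver formation requires, so the injected cells can take the place of the host's own liver cells. The share of host cells left in these livers and the number of stem cell lines used are not stated in the labels. Ploidy, the origin of the cells, the host's genotype and its manipulation differed together between the groups and cannot be told apart.

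Zinc and copper are needed by many enzymes and are toxic when free. Metallothioneins are small cysteine-rich proteins that hold both metals in the cytosol, and fetal and newborn rodent liver is known for storing large amounts of zinc and copper bound to them. MTF1 is the transcription factor that senses free zinc and switches on metallothionein genes and Slc30a1 through short promoter motifs named metal response elements. Proteins of the SLC39 family bring zinc into the cytosol, and those of the SLC30 family take it out. Copper enters hepatocytes through Slc31a1 and is loaded by Atp7b into ceruloplasmin, which carries most of the copper in plasma, or is sent by the same pump to bile.

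The promoters of 4 genes show where matches to the core of the metal response element stand, in genes that rose and in 1 that did not pass the test. RefSeq promoter windows of 300 bases, 250 before and 50 after the annotated start, were found by symbol for 8 of the 10 genes, with 10 windows among them, on GRCm38.p6. They were searched on both strands for the core of the element, TGCACNC or TGCGCNC, with overlapping matches counted as 1 site. The 250 bases before the start are given here in the direction of the gene, with the matches in capitals.
Mt1, GRCm38.p6, chr8:94178839-94179088, plus strand: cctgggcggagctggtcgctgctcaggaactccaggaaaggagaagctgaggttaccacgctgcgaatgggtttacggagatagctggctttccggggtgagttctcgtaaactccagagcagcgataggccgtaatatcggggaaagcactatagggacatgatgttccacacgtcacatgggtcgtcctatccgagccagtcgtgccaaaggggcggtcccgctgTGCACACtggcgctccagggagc
Mt2, GRCm38.p6, chr8:94172368-94172617, plus strand: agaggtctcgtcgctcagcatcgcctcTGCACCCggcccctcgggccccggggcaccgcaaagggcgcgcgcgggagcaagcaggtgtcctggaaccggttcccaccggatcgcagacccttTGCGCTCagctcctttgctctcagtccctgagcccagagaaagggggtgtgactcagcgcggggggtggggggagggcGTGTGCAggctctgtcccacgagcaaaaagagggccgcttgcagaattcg
Slc30a1, GRCm38.p6, chr1:191906531-191906780, plus strand: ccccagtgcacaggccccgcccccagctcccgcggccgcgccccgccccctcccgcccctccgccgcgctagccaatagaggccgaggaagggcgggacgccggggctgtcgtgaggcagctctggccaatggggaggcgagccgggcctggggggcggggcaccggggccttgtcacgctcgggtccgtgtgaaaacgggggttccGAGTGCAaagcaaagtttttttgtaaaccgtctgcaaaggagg
Atp7b, GRCm38.p6, chr8:22060075-22060324, minus strand: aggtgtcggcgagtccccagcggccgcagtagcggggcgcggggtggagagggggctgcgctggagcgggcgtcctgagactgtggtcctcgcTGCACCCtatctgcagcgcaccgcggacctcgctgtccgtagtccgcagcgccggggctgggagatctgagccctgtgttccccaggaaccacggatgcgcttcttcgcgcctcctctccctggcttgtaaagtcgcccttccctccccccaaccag

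Counting the 50 bases after the annotated start as well, the Mt2 window held 4 sites, the Mt1 window 3, the Slc30a1 window 2 and the Atp7b window 1. The sites of Mt1 began at positions -23, 3 and 21, counted from the annotated start, and those of Mt2 at -223, -128, -50 and 5. Of the 32851 mouse promoter windows searched, 25.7% held at least 1 such site, 6.14% at least 2, 1.31% at least 3 and 0.295% at least 4. Windows of another length, and those of 1 chromosome on which none of the genes described here lies, were left out of that search. The windows of Mtf1, Slc31a1 and Cp held 0, and 1 of the 2 windows of Slc39a8 held 1 site. The antioxidant response element, searched as TGACNNNGC, matched once in the windows of Mt2 and Slc30a1, in 1 window of Slc39a8 and in 12.4% of the windows searched. A match to these letters is a description of the sequence and does not show a bound site. Bases outside the windows were not searched, so the counts and positions depend on where the annotated start lies.

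Both metallothionein transcripts and that of the copper pump Atp7b were higher in 4N liver, ceruloplasmin was lower, and the zinc transporters and Mtf1 did not pass the test. At an adjusted p under 0.05 by the Wald test of the authors' deposited table, 3 of the 10 genes were called higher and 1 lower, against 7.94% and 7.41% of all 23022 genes. Among the 10598 genes whose mean reached 500 normalized counts, as it did in all 10, these shares were 11.1% and 10.1%. Taken in either direction, 4 of 10 (40.0%) stood against 15.3% of all genes and 21.2% of those reaching 500. The median log2 fold change of the 10 was 0.11, beside 0.00 for all genes, since it lies among the 6 genes that did not pass. Secreted plasma proteins, with 1 higher and 15 lower of 25, had a median of -0.71, and recentring on them moved every log2 fold change up by 0.71 and gave 8 of the 10 higher and 0 lower. The same shift called 8422 of all 23022 genes higher and 761 lower, and later counts after it stand beside these. A positive fold change means higher in 4N, a direction that the table does not name. It was settled from genes taken to have no reads in 1 group, because their implied mean in that group was close to 0. Of 247 such genes with negative values, in 12 the standard error was under 1.44, the lower limit for an empty group of 2 libraries, so that group was the one with 3 libraries. The table held no values of single libraries, so whether the livers of the 2 groups overlapped could not be examined, and each gene is given by its mean, its fold change and the group means that these imply.

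**Figure D1:**
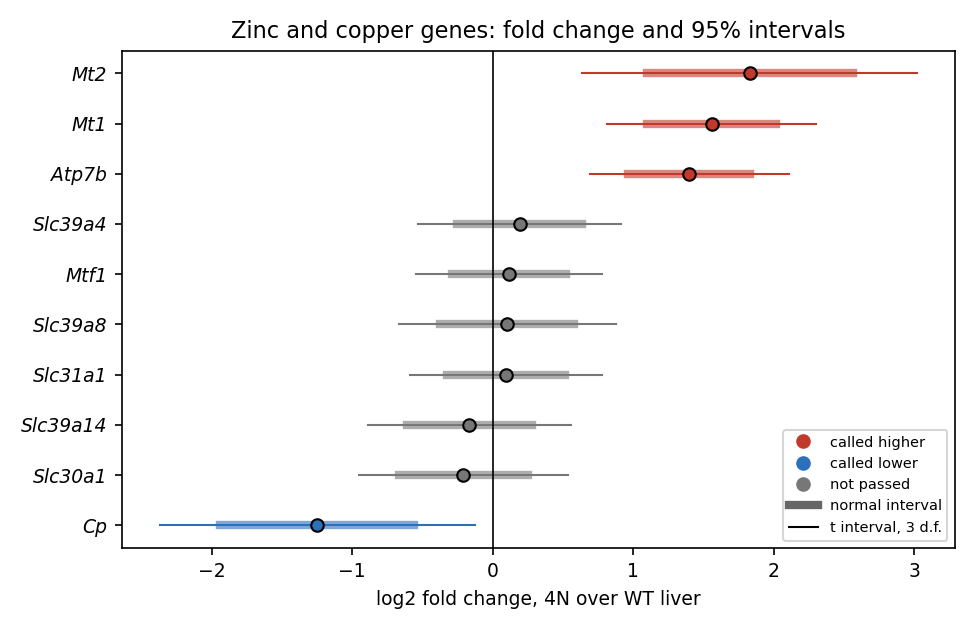
The horizontal axis shows the log2 fold change of 4N over WT liver for the 10 genes, from 3 and 2 libraries. Points are the deposited values, thick bars 95% intervals from the normal distribution and thin bars 95% intervals from a t distribution with 3 degrees of freedom; Mt2, Mt1 and Atp7b lie above 0, Cp below it and the other 6 within 0.21 of it.

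Mt1, the metallothionein with the higher counts in these livers, averaged 39022 normalized counts over all libraries in the authors' deposited table. Its implied group means were 53040 in 4N and 17995 in WT. That is a 2.95-fold difference, with a 95% interval of 2.15 to 4.05. The log2 fold change was 1.56 ± 0.23 (SE; adjusted p = 1.25e-09 per the authors' deposited table). Mt2, the sister gene next to it on chromosome 8, had far lower counts, with a mean of 999 normalized counts in the authors' deposited table. The implied group means of Mt2 were 1402 in 4N and 394 in WT. Its log2 fold change was 1.83 ± 0.37 (SE; adjusted p = 2.45e-05 per the authors' deposited table), which is 3.55-fold with an interval of 2.14 to 5.91. The intervals of the sister genes overlapped widely, and the difference between them was not tested. The implied sum of both rose from 18389 to 54442 normalized counts, and Mt1 made up 97.9% of it in WT and 97.4% in 4N.

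The value of Mt2 is uncertain in 2 ways. Its standard error was larger than that of 91.4% of the 4465 genes with a mean within 2-fold of its own, where the median was 0.28, whereas that of Mt1 was larger than in 58.6% of 370 such genes. In GENCODE M21, 73.5% of its 588 exon bases are also covered by exons of Gm45774, an antisense gene on the opposite strand. The labels do not say whether counting used the strand, and reads of such partners cannot be told apart without it. The level of Mt2, the share of Mt1 in the sum and the ratio between both genes carry the same uncertainty. Gm45774 had a mean of 97.3, and its log2 fold change was 2.11 ± 0.55 (SE; adjusted p = 0.00191 per the authors' deposited table). Per kilobase of annotated exon, Mt1 was 18.4 times as abundant as Mt2. Mt3 and Mt4, the metallothioneins of brain and of stratified epithelia, were not among the genes listed.

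Mtf1, the sensor that drives metallothionein genes, had a mean of 1715 normalized counts, and its log2 fold change was 0.12 ± 0.21 (SE; adjusted p = 0.80 per the authors' deposited table). The implied group means were 1771 in 4N and 1632 in WT, and the 95% interval for the ratio ran from 0.82 to 1.44. The standard error was smaller than in most genes of like abundance, with 5.56% of 5142 genes below it. Exons of 1110065P20Rik on the opposite strand cover 8.09% of those of Mtf1, and that gene stood at -1.12 ± 0.51 (SE; adjusted p = 0.13 per the authors' deposited table). These data measure the transcript, not how active the protein is. Slc30a1, which exports zinc through the plasma membrane and is a textbook target of MTF1 like the metallothioneins, did not pass the test. Its mean was 3411 and its log2 fold change -0.21 ± 0.23 (SE; adjusted p = 0.65 per the authors' deposited table), with implied group means of 3211 in 4N and 3711 in WT. The 95% interval of Slc30a1 (-0.67 to 0.25) and that of Mt1 (1.10 to 2.02) did not overlap, although the difference between the genes was not tested. An antisense gene, 1700034H15Rik, shares 8.92% of the exon bases of Slc30a1 and was called lower, at -1.26 ± 0.40 (SE; adjusted p = 0.0157 per the authors' deposited table).

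Other genes on a list of reported MTF1 targets rose or did not pass the test. Of the 9 genes on that list, which includes Mt1, Mt2 and Slc30a1, 5 rose, 0 fell and 4 did not pass (median 0.71), and without these 3 the count was 3 higher and 0 lower of 6. Of all 23022 genes, 7.94% were called higher and 7.41% lower. The test against a 1.5-fold change left 3 of the 9 higher, which were Mt1, Mt2 and Ndrg1. Ndrg1, a stress-responsive gene that hypoxia also induces, had the smallest adjusted p of them, and its log2 fold change was 2.91 ± 0.26 (SE; adjusted p = 4.66e-26 per the authors' deposited table). Csrp1, which encodes a LIM-domain protein, stood at 0.71 ± 0.23 (SE; adjusted p = 0.0184 per the authors' deposited table), and its call ended in a test against a 1.5-fold change (adjusted p = 1). Selenow, the other gene of the 6 that rose, stood at 1.10 ± 0.38 (SE; adjusted p = 0.0263 per the authors' deposited table). The call of Selenow ended in the same test, and neither gene passed at an adjusted p under 0.01, so Ndrg1 alone of the 6 kept its call in both. The list was assembled from reports in other settings, and several of its genes answer to other signals as well.

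**Figure D2:**
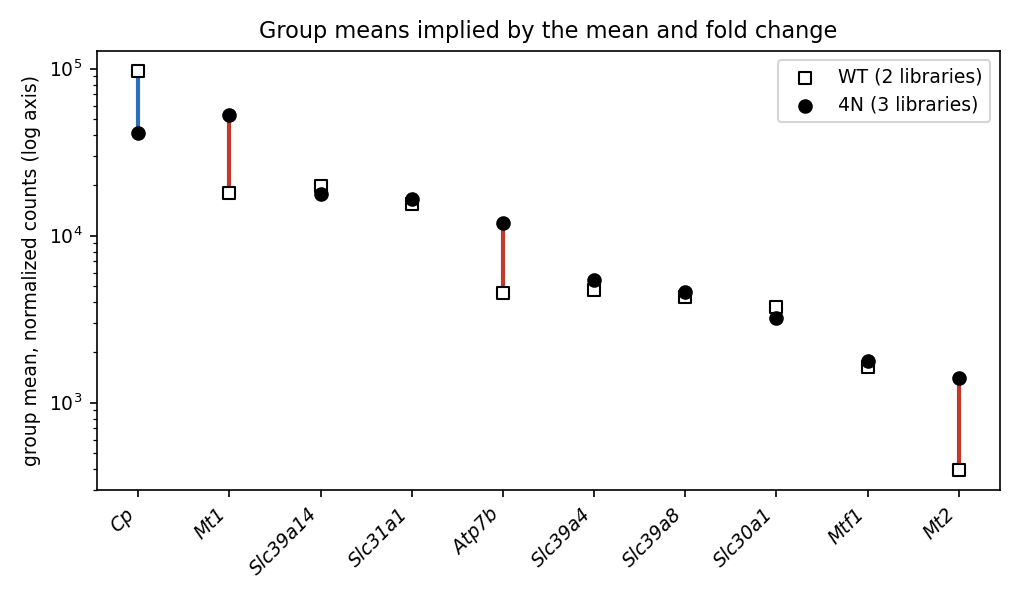
The vertical axis shows the group mean of each gene in normalized counts on a log axis, implied by the deposited mean and fold change for 3 libraries of 4N (filled circles) and 2 of WT (open squares). Mt1, Atp7b and Mt2 are higher in 4N, Cp falls from 97139 to 40914, and the marks of the other 6 genes lie close together.

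None of the 3 zinc importers passed the test, and their implied means were close in both groups. Slc39a14, an importer of zinc, manganese and non-transferrin-bound iron in hepatocytes that inflammation induces, was the most abundant of them, with a mean of 18607, and its log2 fold change was -0.16 ± 0.23 (SE; adjusted p = 0.73 per the authors' deposited table). Its implied means were 17747 in 4N and 19897 in WT. Slc39a8, a close relative that takes up zinc and manganese, had a mean of 4489, and its log2 fold change was 0.10 ± 0.24 (SE; adjusted p = 0.86 per the authors' deposited table). The implied means of Slc39a8 were 4618 and 4296. Slc39a4, the intestinal zinc importer whose loss causes acrodermatitis enteropathica in people, had a mean of 5136, and its log2 fold change was 0.19 ± 0.23 (SE; adjusted p = 0.67 per the authors' deposited table). For Slc39a4 the implied means were 5408 and 4727. Over all 6 genes that did not pass, Slc31a1 included, the 95% intervals from the normal distribution lay between -0.67 and 0.64. Changes larger than 1.59-fold down or 1.56-fold up thus fell outside every one of these normal intervals on the deposited scale. Intervals from a t distribution with 3 degrees of freedom were wider and reached -0.95 (Slc30a1) and 0.92 (Slc39a4). After recentring on secreted plasma proteins, Slc39a4 (0.90), Mtf1 (0.82), Slc39a8 (0.81), Slc31a1 (0.80) and Slc39a14 (0.54) were called higher, so that these limits hold for the deposited centre alone. A p that misses the threshold does not show that the groups were equal.

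Few genes of the wider zinc transporter families passed the test. Of all 23022 genes, 15.3% were called in either direction. Of the 14 SLC39 genes, 0 were called by the Wald test of the authors' deposited table, 1 had an unadjusted p under 0.05, and the median log2 fold change was -0.06, which turned to 0.64 with 6 genes higher after recentring on secreted plasma proteins. That gene, Slc39a12, had a mean of 5.51 in the authors' deposited table. Its implied WT mean was 0.19, so it was taken to have no reads in that group. Among the 11 SLC39 genes whose mean reached 500, values ran from -0.43 to 0.46. Slc39a5, the importer on the basolateral side of gut and pancreatic cells, was the second most abundant of the family by mean and stood at -0.06 ± 0.32 (SE, per the authors' deposited table). Of the 8 measured SLC30 genes, 1 rose, 0 fell and 7 did not pass (median -0.29, turned to 0.42 with 2 higher by the same recentring). The one that rose was Slc30a10, a manganese exporter of the liver and brain, at 0.54 ± 0.20 (SE; adjusted p = 0.0442 per the authors' deposited table). Its call ended after recentring on the 1181 genes whose mean reached 10000 (adjusted p = 0.0789) and also when tested against a 1.5-fold change (adjusted p = 1). Slc30a2 and Slc30a8 were not among the genes listed.

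**Figure D3:**
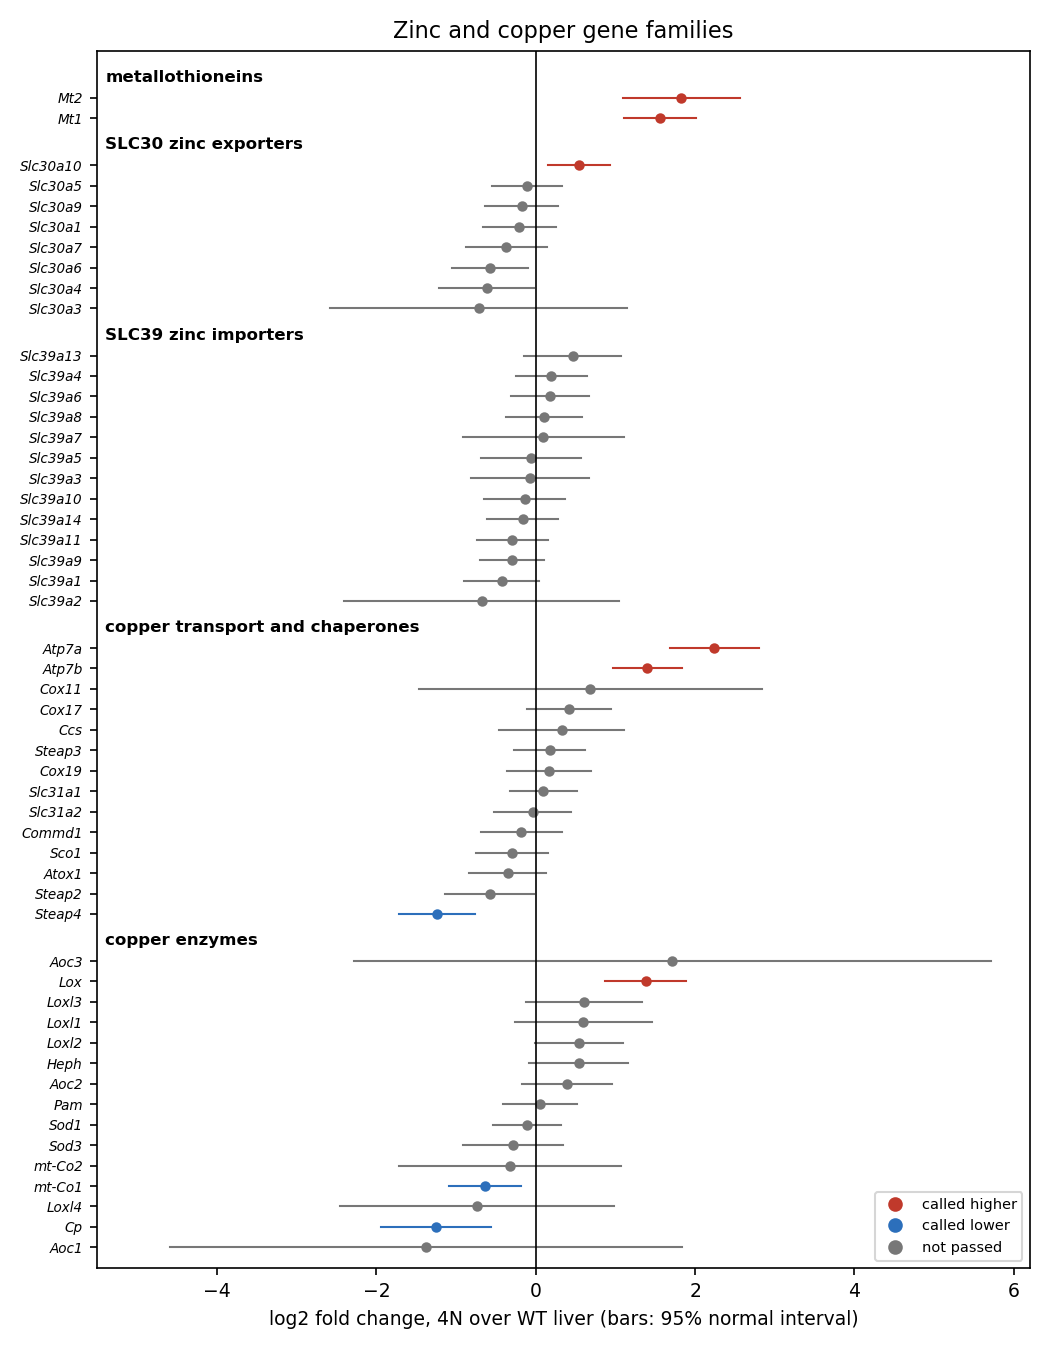
The horizontal axis shows the log2 fold change of 4N over WT liver for each measured gene of 5 families, with bars for the 95% normal interval. Slc39a12, taken to have no reads in the WT group, is left out. Called genes are coloured, and the bars of the SLC39 genes shown all cross 0, while Atp7a, Atp7b and Lox are the copper genes called higher.

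Among the copper genes, both pumps rose and the importer did not pass the test. Slc31a1, the high-affinity copper importer, was abundant, with a mean of 16101, and its log2 fold change was 0.10 ± 0.22 (SE; adjusted p = 0.85 per the authors' deposited table). The implied means of Slc31a1 were 16525 in 4N and 15464 in WT, with a 95% interval for the ratio of 0.80 to 1.43. Atp7b, the copper-transporting ATPase that is defective in Wilson disease, had a mean of 8992, and its log2 fold change was 1.40 ± 0.22 (SE; adjusted p = 1.37e-08 per the authors' deposited table). Its implied means were 11964 in 4N and 4533 in WT, a 2.64-fold difference with an interval of 1.95 to 3.57. Its standard error was larger than in 44.6% of the 2552 genes within 2-fold of its mean, so its precision was ordinary.

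Atp7a, the related pump that most other tissues use and that is defective in Menkes disease, rose as well. Its mean was 5711 and its log2 fold change 2.24 ± 0.29 (SE; adjusted p = 3.44e-13 per the authors' deposited table). The implied means of Atp7a were 8343 in 4N and 1762 in WT. Together, both pumps had an implied level of 20307 in 4N and 6295 in WT, a ratio of 3.23. Per kilobase of exon, Atp7b stood at 697 and Atp7a at 202 normalized counts in WT, and at 1839 and 955 in 4N. Of the 14 measured genes of copper transport and its chaperones, 2 rose, 1 fell and 11 did not pass (median 0.13), and the genes that rose were the pumps. Among all genes reaching a mean of 500, as all 14 did, 21.2% were called in either direction, close to the share of this list. Recentring on secreted plasma proteins gave 8 of the 14 higher and 0 lower, beside 8422 higher and 761 lower of all 23022 genes. The gene that fell was Steap4, a metalloreductase that reduces copper and iron and that inflammation and feeding regulate, at -1.24 ± 0.24 (SE; adjusted p = 9.48e-06 per the authors' deposited table). The call of Steap4 ended after recentring on secreted plasma proteins (adjusted p = 0.0679) and also when tested against a 1.5-fold change (adjusted p = 0.12). The cytosolic chaperone Atox1, named after its value was seen because it hands copper to both pumps, stood at -0.35 ± 0.25 (SE; adjusted p = 0.39 per the authors' deposited table).

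Ceruloplasmin fell, while the pump that loads it with copper rose. Cp had a mean of 63404, the highest of the 10 genes, and its log2 fold change was -1.25 ± 0.35 (SE; adjusted p = 0.00461 per the authors' deposited table). The implied means were 40914 in 4N and 97139 in WT, a 2.37-fold lower level with an interval of 1.47 to 3.83. Its standard error was larger than in 94.0% of the 166 genes within 2-fold of its mean, where the median was 0.22, a wider spread than such an abundant gene usually had. The call ended in a test against a 1.5-fold change (adjusted p = 0.56) and after recentring on secreted plasma proteins, where the value was -0.54 (adjusted p = 0.22), in a range of 0.0028 to 0.56 over the alternatives other than the t reference. Exons of Hps3 on the opposite strand cover 1.13% of those of Cp. Of the 15 measured copper enzymes, 1 rose, 2 fell and 12 did not pass (median 0.06, with 8 higher and 0 lower after that recentring). In either direction, 15.3% of all genes and 21.2% of those reaching a mean of 500 were called. Lox, which crosslinks collagen and elastin, rose by 1.38 ± 0.26 (SE; adjusted p = 3.34e-06 per the authors' deposited table). The mitochondrially encoded mt-Co1, a subunit of cytochrome oxidase that carries copper, fell by 0.64 ± 0.23 (SE; adjusted p = 0.0414 per the authors' deposited table). The sign of mt-Co1 turned to 0.07 (adjusted p = 0.85) after recentring on secreted plasma proteins, and its call ended in a test against a 1.5-fold change (adjusted p = 1). Stellate and mesenchymal markers, among which Lox-producing cells count, had 3 higher and 1 lower of 8 (median 0.66), against 6 and 0 after that recentring (median 1.37) and 0 and 0 in the test against a 1.5-fold change, and their part in the value of Lox was not tested.

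Compared per kilobase of annotated exon, as levels and not differences, the 10 genes spanned a wide range. In the mean over all libraries Mt1 led with 31318 normalized counts per kilobase, followed by Cp with 6628 and Slc31a1 with 3762. Slc39a14 (1764), Mt2 (1699) and Slc39a4 (1653) came next with close values. The spread between libraries behind a level is unknown, so the order of neighbours was not tested. Atp7b followed with 1382, then Slc30a1 with 650 and Slc39a8 with 586, and Mtf1 was last with 193. Mt1 and Cp led in both groups, at 14442 and 10155 in WT and at 42568 and 4277 in 4N. Below them the order differed: Mt2 stood at 671 in WT, under Atp7b and Slc30a1, and at 2384 in 4N, above both. Atp7b, at 697 in WT, was close to Slc30a1 at 708, and in 4N it stood at 1839 against 612. Exon lengths were those of all annotated transcripts of a gene joined, so genes with long unused exons appear too low. The place of Mt2 in this order also depends on how reads shared with Gm45774 were counted, which is unknown.

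**Figure D4:**
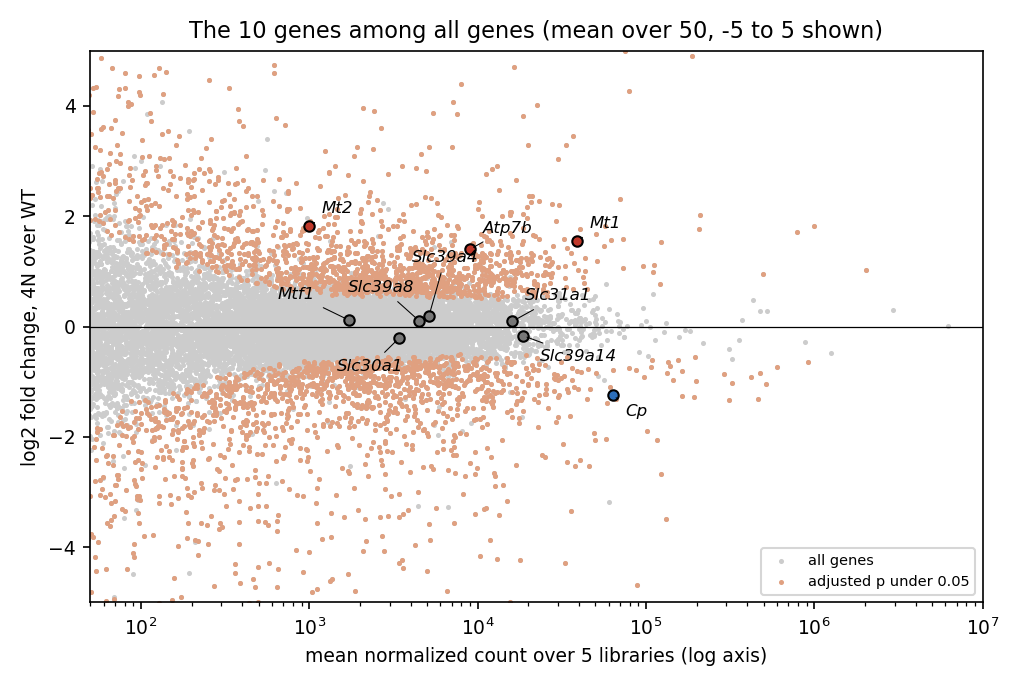
The horizontal axis shows the mean normalized count over 5 libraries on a log axis, and the vertical axis the log2 fold change of 4N over WT; small points are all genes, in orange those with an adjusted p under 0.05. Mt1, Mt2, Atp7b and Cp lie outside the grey band of genes that did not pass, and the other 6 genes lie near its middle.

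Genes that answer to other inducers of metallothioneins, besides metal, were measured in the same comparison. The counts below stand beside 7.94% of all 23022 genes called higher and 7.41% called lower. Inflammation, through IL6, induces metallothioneins, Slc39a14 and Cp. Of 25 acute phase and IL6 signalling genes, 1 rose, 7 fell and 17 did not pass (median -0.39). The haptoglobin gene Hp (-3.48, SE 0.34) and the heme carrier gene Hpx (-2.67, SE 0.20) fell in the authors' deposited table, as did Orm1, which encodes an acid glycoprotein (-3.03, SE 0.37). Saa3, a serum amyloid also made outside hepatocytes, rose by 2.18 ± 0.41 (SE, per the authors' deposited table). After recentring on secreted plasma proteins the median of that list turned to 0.32, with 8 higher and 5 lower. Glucocorticoids also induce metallothioneins. Of 14 glucocorticoid-responsive genes, 1 rose, 5 fell and 8 did not pass (median -0.28). Dusp1, a phosphatase that glucocorticoids and immediate stress induce, rose by 1.82 ± 0.28 (SE, per the authors' deposited table), and Tat (-5.43, SE 0.22), Pck1 (-9.10, SE 0.68) and Klf9 (-1.29, SE 0.25) fell in the authors' deposited table. After recentring on secreted plasma proteins the median of the glucocorticoid list was 0.43, with 5 higher and 2 lower, and Klf9 no longer passed (adjusted p = 0.0503). It no longer passed in a test against a 1.5-fold change either (adjusted p = 0.0902), which left 1 higher and 2 lower on that list. Of 10 targets of NRF2, the oxidative stress factor, 1 rose, 0 fell and 9 did not pass (median -0.06, and 0.65 with 5 higher after that recentring). The gene that rose was Hmox1, which degrades heme, at 1.43 ± 0.22 (SE; adjusted p = 2.05e-09 per the authors' deposited table). Among 4 plasma proteins that bind zinc, A2m rose by 4.91 (SE 0.38) and Hrg fell by 3.35 (SE 0.29), and Alb stood at 0.01 ± 0.22 (SE, per the authors' deposited table). The fourth, Pzp, did not pass.

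Hepatocyte markers were present in both groups, and markers of red cells rose in the same comparison. The Wald test called 7.94% of all 23022 genes higher and 7.41% lower. All 10 hepatocyte markers were measured, with a summed implied level 1.05 times as high in 4N as in WT, and 1 of them rose, 4 fell and 5 did not pass (median -0.41, turned to 0.30 with 3 higher and 0 lower after recentring on secreted plasma proteins). The marker that rose was Afp, with implied means of 2541601 in 4N and 1242358 in WT, so the summed ratio leans on that gene. Most of the 10 hepatocyte markers, Alb and Afp among them, are also on the secreted plasma protein list. Their counts after recentring on that list were thus largely set by the recentring itself and are no separate check. Of 21 erythroid markers, 19 rose and 1 fell (median 1.501), and their summed implied level was 3729578 normalized counts in 4N and 1164986 in WT, a ratio of 3.20. Of 12 macrophage and Kupffer cell markers, 4 rose and 1 fell (median 0.50, summed ratio 1.31). By the same Wald test, 0 of 10 neutrophil markers (0 at an unadjusted p under 0.05), 0 of 8 endothelial markers (1) and 0 of 6 megakaryocyte markers (2) were called, and 1 of 6 cholangiocyte markers fell. Of 5 measured pancreas and gut markers, 1 rose and 1 fell. These counts depended on the centre: after recentring on secreted plasma proteins, 10 macrophage, 7 neutrophil, 6 endothelial, 1 megakaryocyte, 3 cholangiocyte and 3 pancreas and gut markers were called higher, and 20 erythroid ones. That recentring called 8422 of all 23022 genes higher and 761 lower. In the test against a 1.5-fold change 0 hepatocyte markers were called, and of the macrophage markers 0 were higher and 1 lower, while 13 erythroid markers stayed higher. None of the measured markers in these lists was taken to be without reads in a group. Erythroid cells and macrophages also express metallothioneins, zinc transporters and Atp7a, and the part of these cells in the values of Mt1, Mt2, Atp7a and Atp7b was not tested. In bulk tissue, fewer cells of a type and less RNA per cell cannot be told apart. Hhex had a mean of 5894, and its log2 fold change was 0.55 ± 0.33 (SE; adjusted p = 0.29 per the authors' deposited table), and which cells its transcripts came from could not be examined.

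**Figure D5:**
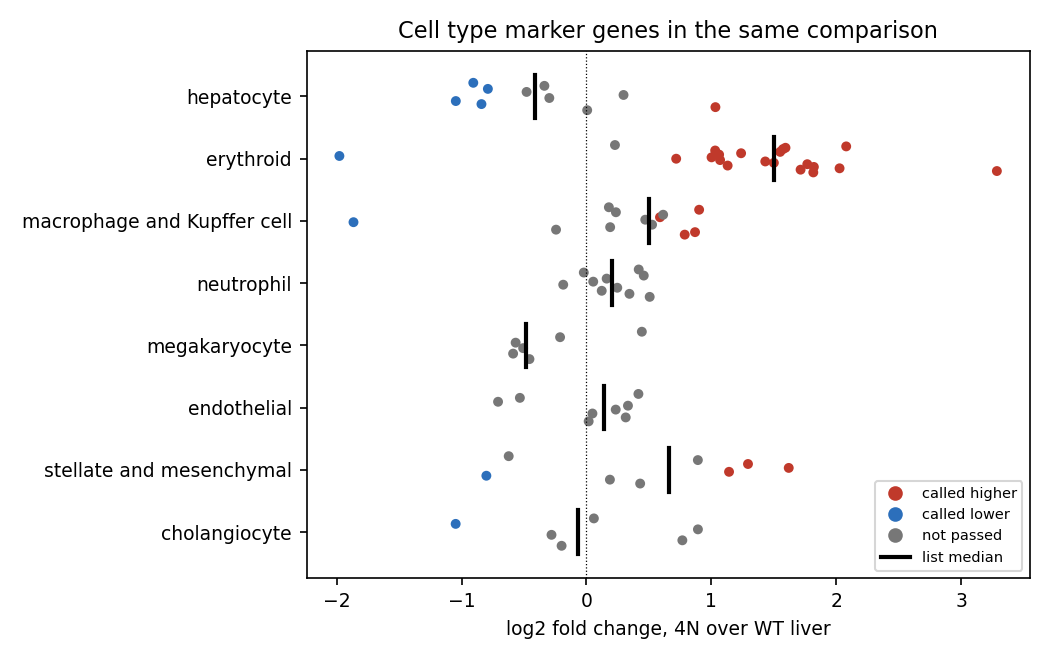
The horizontal axis shows the log2 fold change of 4N over WT liver for marker genes of 8 cell types, 1 point per gene, with a bar at the median of each list. Erythroid markers lie mostly above 0 (median 1.501), and hepatocyte markers are spread on both sides of 0 (median -0.41).

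The labels do not say whether the livers of a group came from separate litters, so the p-values measure only the spread between these samples, which may be technical. The Wald test refers its statistic to the normal distribution. Against a t distribution on 3 degrees of freedom, 0 genes were called in either direction, members included. Even Tat, with a Wald statistic of -24.3, had an adjusted p of 0.37 on that t reference, so the 0 calls do not set the members apart. On the same reference, 2513 of all genes had an unadjusted p under 0.05. The unadjusted p-values of that kind were 0.00681 for Mt1, 0.0164 for Mt2, 0.00807 for Atp7b and 0.0385 for Cp, and their 95% intervals still lay on one side of 0.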

How the data were processed

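RNA of 5 E18.5 livers was sequenced from poly(A)-selected libraries, per the labels' protocols, and samples were grouped by their titles (4N, 3; WT, 2). Per the submitters' processing notes, reads were mapped to GRCm39; for the aligner, counter and strand setting the sources used here name nothing. From these libraries the authors deposited a single table. It holds, per the file headers, a signal averaged over all libraries (normalized counts), log2 fold changes with standard errors, the Wald statistic as a score, and p-values with their adjusted values, under DESeq2's column names. On checking, the statistic was the fold change over its standard error, and the adjusted p the Benjamini-Hochberg adjustment over 23022 genes. No count or value of a single library was used, so the depth is unknown and the planned edgeR and leave-one-out fits could not be run.

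Calls used the authors' adjusted p under 0.05. Group means were computed so that their average, weighted by 3 and 2 libraries, gave the deposited mean and their ratio the fold change. Intervals cover 95%. The minimum mean of 500 behind some shares and ranges was chosen after the data were seen. Exon lengths, overlaps and chromosomes came from GENCODE M21 (GRCm38), another build, by symbol. The members and gene lists were chosen with earlier results of these data known. Named were all members, Hhex and Alb, and in each list the called genes with the smallest adjusted p (up to 4 in 1 direction, up to 3 each in both) or the 2 most abundant; for cell marker lists only counts are given. Genes named outside that rule are Atox1, Pzp, Slc39a12, Afp, Selenow and the genes whose exons overlap members. The alternatives that were run were also tried on simulated fold changes, drawn with normal noise scaled by the deposited standard errors. Such data take those standard errors and the normal distribution as given, so they cannot check either of them or the centre. Scripts ran in Python 3.11.15 (pandas 2.3.3, numpy 2.4.6, matplotlib 3.10.9, scipy 1.17.1).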

Additional observations from a re-analysis of the deposited data

How the results depend on the processing

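Of the 10 genes, Mt1, Mt2 and Atp7b stayed called higher under every alternative run except the t reference, with log2 fold changes of 1.51 to 2.27, 1.78 to 2.54 and 1.35 to 2.11. The alternatives were a minimum mean of 50, a 1.5-fold change as the null, 0.01 as the threshold, the t reference, recentring on genes whose mean reached 10000 or on secreted plasma proteins, and leaving out genes without reads in a group. Recentring on secreted plasma proteins moved every log2 fold change up by 0.71 and gave 8 of the 10 higher and 0 lower, with Slc30a1 turned to 0.50 (adjusted p = 0.077, the lowest over its alternatives) and Slc39a14 to 0.54 (adjusted p = 0.044, likewise the lowest), beside 8422 higher and 761 lower of all genes (91.7% higher among the calls, against 51.7%). The test against a 1.5-fold change left 0 of the 10 lower, and 521 higher and 588 lower of all genes. An adjusted p under 0.01 left 1210 higher of all genes. The t reference with 3 degrees of freedom left 0 higher and 0 lower, both of the 10 and of all genes; this follows from its heavier tails. The cause of the other changes was not tested. The runs without single libraries and with edgeR or other size factors were not made, since they need values of single libraries. No paired analysis was possible because the groups share no replicate number and the table holds no libraries.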
